A study of Mus musculus with 24 samples.

Results

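Pdcd1, Cd274 and Pdcd1lg2 are the genes of the receptor PD-1 and of its ligands PD-L1 and PD-L2, and their probes were taken by name from the 770 genes of an nCounter table, a hybridisation assay that counts single RNA molecules. All 3 were on the table. RNA came from tumours grown in female FVB neu-N mice, which carry the rat neu gene under the mouse mammary tumour virus promoter. NT2.5 cells, a single line from a mammary tumour that arose spontaneously, were implanted into the mammary fat pad at an age of 7 to 8 weeks. Treatment started 3 days later and ran for 3 weeks. The vehicle group (4 samples) had methylcellulose and isotype antibodies. ENT (4) had daily oral entinostat at 5 mg/kg, a drug that blocks class I histone deacetylases. ENT+PD1 (4) had entinostat and anti-PD-1. ENT+CTLA4 (4) had entinostat and anti-CTLA-4. ENT+PD1+CTLA4 (4) had the drug with both antibodies, and ENT+CTLA4+HER2 (2) had it with anti-CTLA-4 and anti-HER2. Each antibody was given at 100 µg per mouse. No group had anti-PD-1, anti-CTLA-4 or anti-HER2 without entinostat. A further 2 samples carry titles that repeat those of ENT+PD1 replicates 1 and 2 and are called the repeat-titled pair. The labels give whole tumour as the source, whereas the extraction protocol ends on immune cell isolation; which material gave the RNA was not settled. The protocol also says that studies were run with and without anti-HER2, and groups follow the titles alone. Separate animals are not stated for the samples, nor whether the pair repeats the tumours of ENT+PD1 replicates 1 and 2, and p-values measure only the spread between these samples.

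PD-1 is an inhibitory receptor that T cells put on their surface after activation. Binding of a ligand recruits phosphatases to its tail, which damp signalling from the T cell receptor and from CD28. PD-L1 is made by tumour cells, macrophages, dendritic cells and many other cells and is induced by interferon gamma, whereas PD-L2 is made mainly by dendritic cells and macrophages and is known to respond to interleukin 4 and STAT6.

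Vehicle, ENT and ENT+PD1 ran on cartridge 1, and the other groups, including the repeat-titled pair, ran on cartridge 2. In any comparison across cartridges, treatment and cartridge cannot be told apart. Recovered counts per sample, summed over genes, ran from 226863 to 483418. A background limit was set for each sample at the mean of its 8 negative control probes plus 2 SD, and its median was 15.9 on cartridge 1 and 10.2 on cartridge 2. Tumour and leukocyte transcripts were both present: Epcam, an epithelial surface protein, ran from 3778 to 6927 and Ptprc, the leukocyte gene CD45, from 98.3 to 556. ENT+PD1 replicates 5 and 6 stood apart, with Ptprc at 438 and 556 against at most 211 in the other 10 samples of cartridge 1. Differences from ENT+PD1 and correlations are therefore also given without them. In bulk samples, fewer cells of a type and less RNA per cell cannot be told apart.

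The start regions of the 3 genes are shown as background, and no link between sequence and level was tested. The ligand genes are neighbours: on chromosome 19 of mouse, no protein-coding gene lies between Cd274 and Pdcd1lg2, while Pdcd1 is on chromosome 1. Each window holds 250 bases before and 50 bases after the annotated start in RefSeq (build GRCm38.p6), 5′ to 3′ on the gene's strand. All 3 genes matched by symbol. The windows are chr1:94052504-94052803 on the minus strand for Pdcd1, chr19:29367188-29367487 on the plus strand for Cd274 and chr19:29410669-29410968 on the plus strand for Pdcd1lg2. Capitals mark motif matches.
Pdcd1: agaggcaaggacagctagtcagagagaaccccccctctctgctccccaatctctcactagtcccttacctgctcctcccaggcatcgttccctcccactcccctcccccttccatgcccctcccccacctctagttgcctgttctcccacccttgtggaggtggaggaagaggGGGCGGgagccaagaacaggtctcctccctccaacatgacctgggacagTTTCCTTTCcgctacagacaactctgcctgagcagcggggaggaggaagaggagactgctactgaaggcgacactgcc
Cd274: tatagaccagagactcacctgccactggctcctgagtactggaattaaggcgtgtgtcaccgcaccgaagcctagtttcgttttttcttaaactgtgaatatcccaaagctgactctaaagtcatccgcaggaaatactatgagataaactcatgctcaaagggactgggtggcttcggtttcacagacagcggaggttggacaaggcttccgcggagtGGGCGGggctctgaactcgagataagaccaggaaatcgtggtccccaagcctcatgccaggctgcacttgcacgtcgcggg
Pdcd1lg2: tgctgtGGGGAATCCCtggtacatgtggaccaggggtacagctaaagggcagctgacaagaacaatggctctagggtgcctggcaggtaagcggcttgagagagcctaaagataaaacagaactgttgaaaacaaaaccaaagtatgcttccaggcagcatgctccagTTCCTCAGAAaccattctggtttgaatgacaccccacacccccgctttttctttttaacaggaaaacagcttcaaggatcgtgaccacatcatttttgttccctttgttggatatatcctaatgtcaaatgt

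Motifs were chosen after the sequences had been seen and were searched on both strands, and a match is a description of letters, not of a site. In the Pdcd1 window the pattern TTTCNTTTC, a repeat of TTTC with 1 base between the copies, began 28 bases before the start. This pattern was present in 3.17% of 32851 windows of the same length. A GC box (GGGCGG), present in 35.7% of windows, began 77 bases before the Pdcd1 start and 31 bases before the Cd274 start. The Pdcd1lg2 window held a STAT6-type element (TTCNNNNGAA, 6.95% of windows) 82 bases before the start and a kappaB match (8.46% of windows) 244 bases before it. Both of these read as matches on both strands and count as 1 place each. The ISRE core (GAAANNGAAA), an AP-1 pattern (TGANTCA), the NFAT core (TGGAAA) and TATAAA had no match in any of the 3 windows. These 4 occur in 3.44%, 7.81%, 21.4% and 13.6% of all windows.

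Pdcd1, the receptor, was weak in most tumours (probe on transcript NM_008798.1). Normalized values of 9.13, 11.1, 5.71 and 10.1 were measured in vehicle, and 6.80, 12.4, 16.1 and 11.1 in ENT. ENT+PD1 gave 12.6, 4.08, 60.9 and 69.5 in replicates 1, 2, 5 and 6. Replicates 5 and 6 were thus the highest of all 24 samples, and replicate 2 was the lowest. ENT+CTLA4 gave 10.3, 7.29, 8.21 and 12.4, and ENT+PD1+CTLA4 gave 7.31, 15.1, 19.5 and 10.6. The repeat-titled pair had 7.11 and 13.7, and ENT+CTLA4+HER2 had 8.50 and 23.2. These low values rest on few molecules: recovered counts ran from 4 to 67, and 11 of 24 samples exceeded their background limit, including 0 of 4 in vehicle.

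Cd274, the gene of PD-L1, exceeded the background limit in 24 of 24 samples (probe on transcript NM_021893.2). Vehicle tumours had 59.4, 24.9, 41.4 and 80.6, and ENT tumours had 35.0, 33.3, 52.4 and 21.3. In ENT+PD1, replicates 1 and 2 had 43.7 and 48.2, inside the vehicle range, whereas replicates 5 and 6 had 146 and 185, above every other sample. ENT+CTLA4 had 70.8, 42.7, 39.2 and 55.2, and ENT+PD1+CTLA4 had 48.7, 58.4, 68.1 and 32.6, and these ranges overlapped. ENT+CTLA4+HER2 had 133 and 125, both above all other samples of cartridge 2. The repeat-titled pair had 37.6 and 80.9.

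Pdcd1lg2, the gene of PD-L2, exceeded the limit in 14 of 24 samples (probe on transcript NM_021396.2). Vehicle had 12.6, 27.7, 19.97 and 21.8, and ENT had 17.5, 15.5, 23.2 and 19.6. ENT+PD1 had 17.2, 8.98, 60.9 and 50.9 in replicates 1, 2, 5 and 6, and the same tumours were high as for the other genes. ENT+CTLA4 had 7.18, 7.29, 5.47 and 9.32. All 4 of these lay below all 8 vehicle and ENT values, but only 1 of the 4 exceeded its background limit, and the limit itself was lower on their cartridge. ENT+PD1+CTLA4 had 8.12, 14.1, 23.8 and 7.93, the repeat-titled pair 12.2 and 8.71, and ENT+CTLA4+HER2 18.7 and 32.3.

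**Figure D1:**
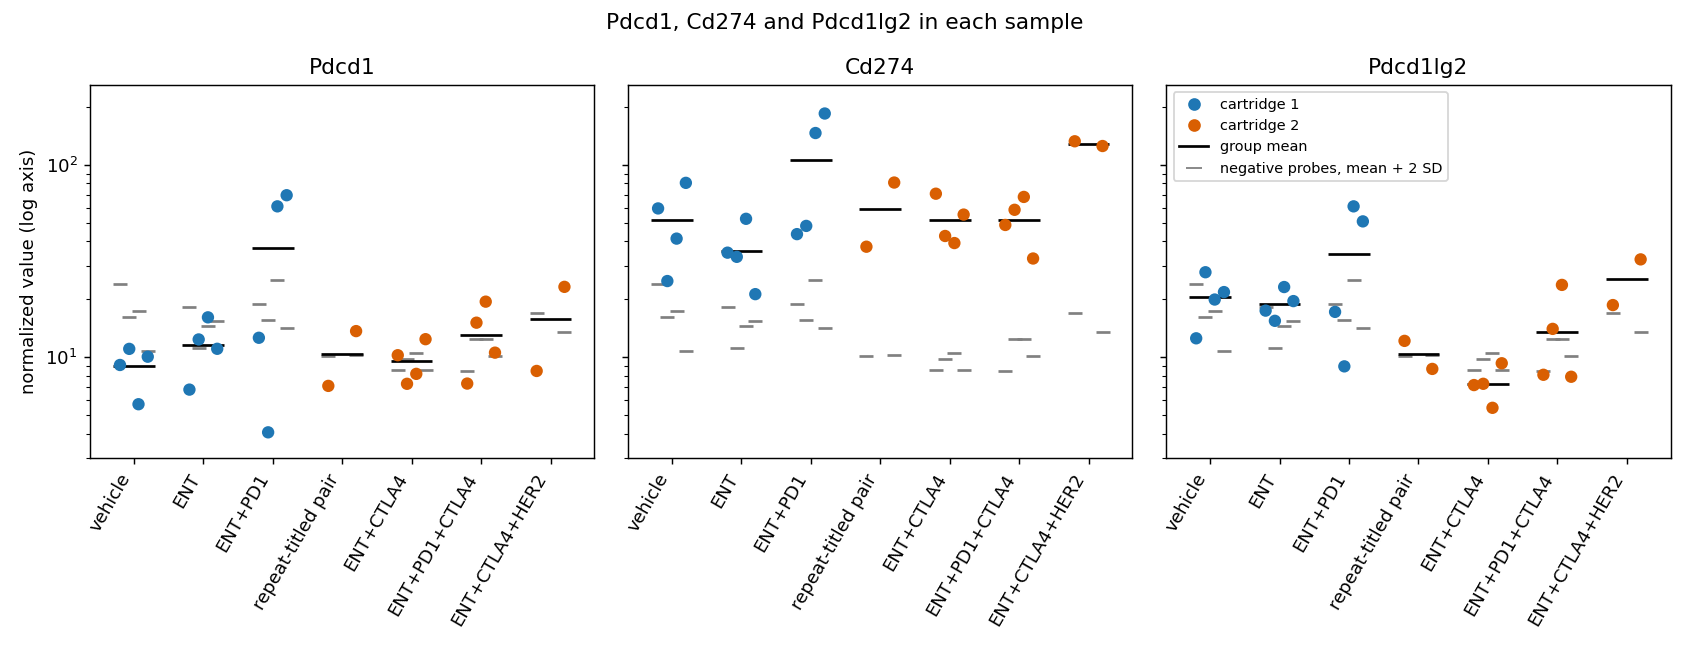
Normalized values of Pdcd1, Cd274 and Pdcd1lg2 in each of 24 samples (log axis) by group, with points coloured by cartridge, black lines at group means and grey ticks at each sample's background limit. In ENT+PD1, 2 of 4 tumours stand well above the other 2 for all 3 genes, and most Pdcd1 points lie near the grey ticks.

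Ordered by mean, Pdcd1 was 36.8 ± 33.2 (SD, n = 4) in ENT+PD1, 15.9 ± 10.4 (n = 2) in ENT+CTLA4+HER2, 13.1 ± 5.31 (n = 4) in ENT+PD1+CTLA4, 11.6 ± 3.85 (n = 4) in ENT, 10.4 ± 4.65 (n = 2) in the repeat-titled pair, 9.55 ± 2.29 (n = 4) in ENT+CTLA4 and 9.00 ± 2.33 (n = 4) in vehicle. The ranges of every pair of neighbours in this order overlapped. For Cd274 the order was ENT+CTLA4+HER2 (129 ± 5.16, n = 2), ENT+PD1 (105.7 ± 70.8, n = 4), the repeat-titled pair (59.2 ± 30.7, n = 2), ENT+CTLA4 (52.0 ± 14.3, n = 4), ENT+PD1+CTLA4 (52.0 ± 15.1, n = 4), vehicle (51.6 ± 23.9, n = 4) and ENT (35.5 ± 12.8, n = 4), again with every pair of neighbours overlapping. Pdcd1lg2 ran from 34.5 ± 25.2 (n = 4) in ENT+PD1 through 25.5 ± 9.61 (n = 2) in ENT+CTLA4+HER2, 20.5 ± 6.24 (n = 4) in vehicle, 18.9 ± 3.30 (n = 4) in ENT, 13.5 ± 7.44 (n = 4) in ENT+PD1+CTLA4 and 10.4 ± 2.45 (n = 2) in the repeat-titled pair to 7.32 ± 1.58 (n = 4) in ENT+CTLA4. Its neighbours overlapped too. The large SD of ENT+PD1 for each gene reflects its split into replicates 1 and 2 and replicates 5 and 6.

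Differences were tested with limma on log2(value + 1), a scale that understates the change of weak genes, over the 621 genes that reached 20 in 4 or more samples. Cd274 and Pdcd1lg2 passed this filter and Pdcd1, at 20 or more in 3 samples, did not. Each gene was therefore also tested in each of 9 comparisons by a two-sided exact permutation test, which for 4 against 4 samples cannot give a p below 0.0286 and for 2 against 4 cannot go below 0.0667. Pdcd1 intervals come from the same limma model fitted without the filter. None of the 3 genes passed a Benjamini-Hochberg adjusted p of 0.05 in any comparison as planned. In the 27 permutation tests, 2 unadjusted p-values were under 0.05 and 0 adjusted ones, the lowest being 0.386.

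With entinostat alone, none of the 3 transcripts differed from vehicle past the tests, and the groups overlapped for each, although 3 of 4 Pdcd1 values in ENT lay above the highest vehicle value of 11.07 (12.39, 16.14 and 11.08). Cd274 in ENT was 0.72 times vehicle (95% interval 0.38 to 1.36, limma adjusted p = 0.999), and Pdcd1lg2 was 0.95 times vehicle (0.48 to 1.88, limma adjusted p = 0.999). Pdcd1 exceeded its background limit in 0 of 4 vehicle samples, so its differences from vehicle have no exact fold and are given on the log2 scale: in ENT it was 0.31 (95% interval -0.96 to 1.59, exact permutation p = 0.343, adjusted 0.514). The intervals are wide, and each covers both lower and higher values in ENT. Of all genes tested, 0% were called here, with 29 at an unadjusted limma p under 0.05 and 0 called by edgeR or DESeq2.

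Adding anti-PD-1 to entinostat went with higher Cd274 in 2 of 4 tumours. Against ENT, which lay on the same cartridge, Cd274 in ENT+PD1 was 2.53 times as high (95% interval 1.35 to 4.75), a log2 difference of 1.34 ± 0.43 (SE). The unadjusted limma p was 0.00624 and the adjusted p was 0.205; by exact permutation p was 0.0857, adjusted 0.463. The groups overlapped, because replicates 1 and 2 lay under the highest ENT value of 52.4. Pdcd1lg2 was 1.40 times ENT (0.71 to 2.76, limma adjusted p = 0.492) and Pdcd1 was 1.93 times ENT (0.80 to 4.67, exact permutation p = 0.343, adjusted 0.514). Of all genes, 0.322% were called in this comparison.

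The size of this difference turned on single tumours. Without replicate 1 of ENT+PD1 the Cd274 difference was 1.66 and passed (limma adjusted p = 0.0413), the only one of its 21 alternative settings to do so, with adjusted p from 0.0413 to 1.000 over them. Under median rescaling it was 0.98, since the median of all genes lay 0.34 above 0 in this comparison. With replicates 5 and 6 left out together, a setting chosen after the data were seen, the log2 differences from ENT were 0.43 for Cd274, -0.55 for Pdcd1lg2 and -0.54 for Pdcd1. With the repeat-titled pair counted into ENT+PD1, the differences were 1.12 for Cd274 and 0.056 for Pdcd1lg2.

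Against vehicle, ENT+PD1 had 1.83 times the Cd274 (0.97 to 3.43, limma adjusted p = 0.470) and 1.33 times the Pdcd1lg2 (0.67 to 2.63, limma adjusted p = 0.672). Pdcd1 differed by 1.26 on the log2 scale (95% interval -0.0089 to 2.54, exact permutation p = 0.286, adjusted 0.514), with 0 of 4 vehicle samples above background. Without replicates 5 and 6 all 3 differences turned negative, at -0.041, -0.62 and -0.23 on the log2 scale. This comparison called 0% of genes, with 60 at an unadjusted limma p under 0.05 and 0 by edgeR or DESeq2. It shares its ENT+PD1 samples with the comparison against ENT.

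Summed T cell, macrophage and dendritic cell markers were high in the same ENT+PD1 tumours. Summed over the T cell list (Cd3e, Cd4, Lck and others), replicates 5 and 6 had 564.1 and 720, against 168 and 100 in replicates 1 and 2 and at most 207 in vehicle and ENT. The macrophage and monocyte list summed to 5987 and 7908 in replicates 5 and 6, and to 2656 and 3039 in replicates 1 and 2. Dendritic cell markers summed to 331 and 402 in replicates 5 and 6 and to 123 and 106 in replicates 1 and 2. Endothelial and stromal markers summed to 13381 and 24495 against 7399 and 10800. Replicate 5 lay inside the vehicle range for this list, which reached 14832. The median log2 difference of this list from ENT was 0.34, as over all genes. B cell markers did not separate the pairs, at 93.6 and 72.7 against 75.8 and 36.9. Epithelial markers were lower in replicates 5 and 6, at 7004 and 6051 against 8885 and 9365. The part of these cell types in the 3 transcripts was not tested.

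Ptprc was then used as a measure of leukocyte RNA. The log2 ratio of Cd274 to Ptprc averaged -1.54 in ENT+PD1, -2.10 in ENT and -1.65 in vehicle. Its difference between ENT+PD1 and ENT was 0.56 (exact permutation p = 0.0571, adjusted 0.150), and 0.60 without replicates 5 and 6. The Pdcd1lg2 ratio to Ptprc was -0.29 log2 units from ENT (exact permutation p = 0.514, adjusted 0.637), and the Pdcd1 ratio was 0.18 from ENT (exact permutation p = 0.771, adjusted 0.801). Over the 27 such ratio tests, 7 had an unadjusted p under 0.05 and 0 an adjusted one, the lowest being 0.110.

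**Figure D2:**
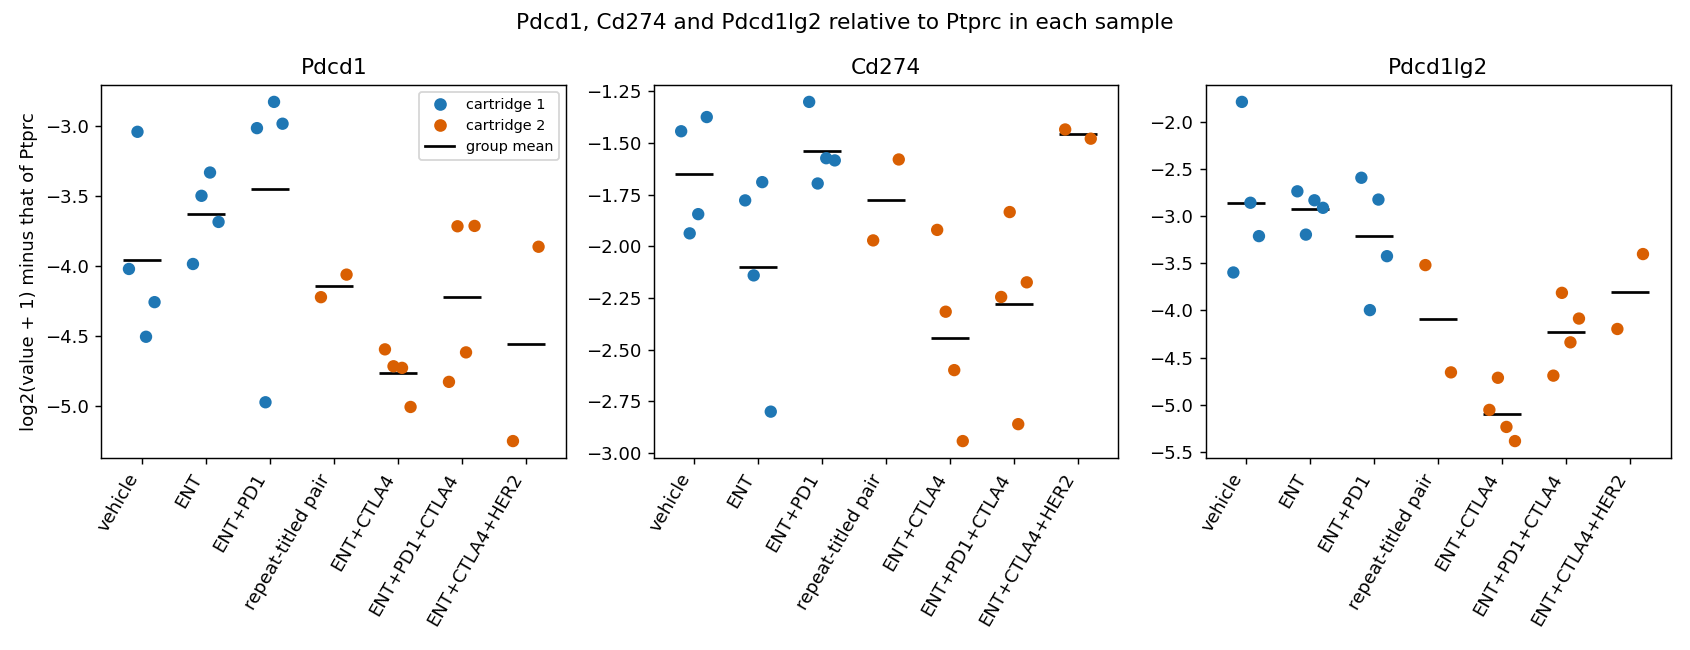
Log2(value + 1) of each gene minus that of Ptprc in each sample, by group, coloured by cartridge, with black lines at group means. For Pdcd1lg2 the 12 samples of cartridge 2 lie mostly below those of cartridge 1, and the 4 ENT+CTLA4 samples are the lowest group.

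Combined anti-PD-1 and anti-CTLA-4 was compared with anti-CTLA-4 alone, both on entinostat and on cartridge 2. Cd274 was 0.99 times as high (95% interval 0.53 to 1.86, limma adjusted p = 1.000), Pdcd1lg2 0.69 log2 units from it (-0.29 to 1.67, limma adjusted p = 1.000, with 1 and 2 of 4 samples above background) and Pdcd1 1.29 times (0.53 to 3.11, exact permutation p = 0.286, adjusted 0.514). All 3 genes overlapped between these groups. This comparison called 0% of genes, with 10 at an unadjusted limma p under 0.05 and 0 by edgeR or DESeq2. Replicate 1 of ENT+PD1+CTLA4 had the highest value of its group for all 3 genes. Its T cell list summed to 1608 and its B cell list to 416, against at most 183 and 32.4 in the other 3 tumours. Relative to Ptprc, Pdcd1lg2 was 0.86 log2 units higher in ENT+PD1+CTLA4 than in ENT+CTLA4 (exact permutation p = 0.0286, adjusted 0.110).

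The interaction asked whether anti-PD-1 went with a different change when anti-CTLA-4 was present. It was -1.35 ± 0.61 (SE) on the log2 scale for Cd274 (limma adjusted p = 0.595) and 0.20 ± 0.66 for Pdcd1lg2 (limma adjusted p = 0.883). Without replicates 5 and 6 of ENT+PD1 it was -0.44 for Cd274 and 1.24 for Pdcd1lg2. The interaction called 0% of genes, with 42 at an unadjusted limma p under 0.05 and 0 by edgeR or DESeq2. The F test across the 5 groups of 4 gave adjusted p-values of 0.336 for Cd274 and 0.127 for Pdcd1lg2, where 3.22% of genes were called. Without replicate 2 of ENT+PD1, the Pdcd1lg2 value was 0.0159. These groups lie on both cartridges, so the F test cannot tell treatment from cartridge. With cartridge as a block it called 0 genes.

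The 2 tumours given anti-HER2 in addition to ENT+CTLA4 had more of both ligand transcripts. Both groups lay on cartridge 2. Cd274 was 2.52 times as high as in ENT+CTLA4 (95% interval 1.16 to 5.45, log2 difference 1.33 ± 0.53 SE, limma adjusted p = 0.174), and Pdcd1lg2 had a log2 difference of 1.64 ± 0.57 (95% interval 0.44 to 2.84, limma adjusted p = 0.120). Neither passed. Since 3 of 4 ENT+CTLA4 samples were not above background for Pdcd1lg2, its difference has no exact fold, and with values floored at 20 it was 0.35. Replicate 1 of ENT+CTLA4+HER2 had the lowest recovered total of all samples, 226863. Its Pdcd1lg2 value of 18.7 came from 11 recovered counts, where the counts in ENT+CTLA4 ran from 6 to 12. For both ligands the 2 values lay above all 4 of ENT+CTLA4, as did those of 22.5% of all genes in this comparison. Called genes made up 2.25% of those tested. Pdcd1 overlapped, with a log2 difference of 0.55 (exact permutation p = 0.333, adjusted 0.514).

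Interferon gamma response genes were higher beside the ligands in these 2 tumours in 15 of 18 members of the list, with a median difference of 0.54, where 67.6% of all genes were higher, with a median of 0.17. Only Psmb9, an immunoproteasome subunit, passed, at 1.32 log2 units (limma adjusted p = 0.0344). The chemokine gene Cxcl9, an interferon gamma target, had 61.2 and 116 in ENT+CTLA4+HER2 and from 1.00 to 32.8 in ENT+CTLA4 (limma adjusted p = 0.0583). Irf1, a transcription factor that acts on the Cd274 gene, had 782 and 1219 against 471 to 724 (limma adjusted p = 0.0667). Neutrophil markers were also high, with summed values of 13089 and 1897 against 835 to 1746. Ptprc was 360 and 351 against 217 to 430, and the T cell list summed to 194 and 427 against 70.3 to 844. Their part in the ligand values was not tested.

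Across cartridges, Pdcd1lg2 was lowest in ENT+CTLA4. Only 1 of its 4 samples was above background, so differences are given on the log2 scale. From vehicle it was -1.34 ± 0.47 (SE, 95% interval -2.32 to -0.36, limma adjusted p = 0.145, exact permutation p = 0.0286, adjusted 0.386) and from ENT -1.27 (-2.25 to -0.29, limma adjusted p = 0.237, exact permutation p = 0.0286, adjusted 0.386). The groups did not overlap in either comparison, which held for 7.89% of all genes lower than vehicle and 5.64% lower than ENT. Called genes were 1.45% against vehicle. Against ENT they were 0%, with 94 at an unadjusted limma p under 0.05, 0 called by edgeR and 15 by DESeq2. A fit of ENT+CTLA4 and ENT alone gave an adjusted p of 0.0234. With cartridge as a block, tied by the repeat-titled pair, the differences were -0.052 from vehicle and 0.022 from ENT. That block rests on ENT+PD1 replicates 5 and 6: without them, a setting added after the data were seen, the differences were -1.09 and -1.01 (limma adjusted p = 0.990 and 0.968). With values floored at 20 they were -0.15 and -0.053. Relative to Ptprc, which was 0.89 log2 units higher than in vehicle (limma adjusted p = 0.299), Pdcd1lg2 was -2.23 from vehicle and -2.18 from ENT, and Pdcd1 was -0.80 and -1.14 (exact permutation p = 0.0286 and adjusted p = 0.110 in each).

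The treatment in the titles of the repeat-titled pair occurs on both cartridges. Pdcd1lg2 was 12.2 and 8.71 in the pair on cartridge 2, and 17.2, 8.98, 60.9 and 50.9 in ENT+PD1 replicates 1, 2, 5 and 6 on cartridge 1. Cd274 in ENT+CTLA4 was 1.07 times vehicle (0.57 to 2.01, limma adjusted p = 0.947) and 1.48 times ENT (0.79 to 2.79, adjusted p = 0.571). On the log2 scale Pdcd1 was 0.086 from vehicle and -0.23 from ENT (exact permutation p = 0.743 and 0.457, adjusted 0.872 and 0.588).

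ENT+PD1+CTLA4 against vehicle gave 1.06 times for Cd274 (0.56 to 1.99, limma adjusted p = 0.926), 0.64 times for Pdcd1lg2 (0.32 to 1.25, adjusted p = 0.576) and a log2 difference of 0.45 for Pdcd1 (exact permutation p = 0.229, adjusted 0.514), where 2.09% of genes were called. Against ENT+PD1 it gave 0.58 times for Cd274 (0.31 to 1.09, adjusted p = 0.417), 0.48 times for Pdcd1lg2 (0.24 to 0.94, adjusted p = 0.232) and 0.57 times for Pdcd1 (0.24 to 1.38, exact permutation p = 0.4, adjusted 0.54), where 3.22% were called. Without replicates 5 and 6 of ENT+PD1 the log2 differences from ENT+PD1 were 0.13, -0.031 and 0.68. Relative to Ptprc, the Cd274 difference from ENT+PD1 was -0.74 (exact permutation p = 0.0286, adjusted 0.110), and -0.78 without those replicates. Without replicate 2 alone, the Pdcd1lg2 difference was -1.56 and passed (limma adjusted p = 0.0244).

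**Figure D3:**
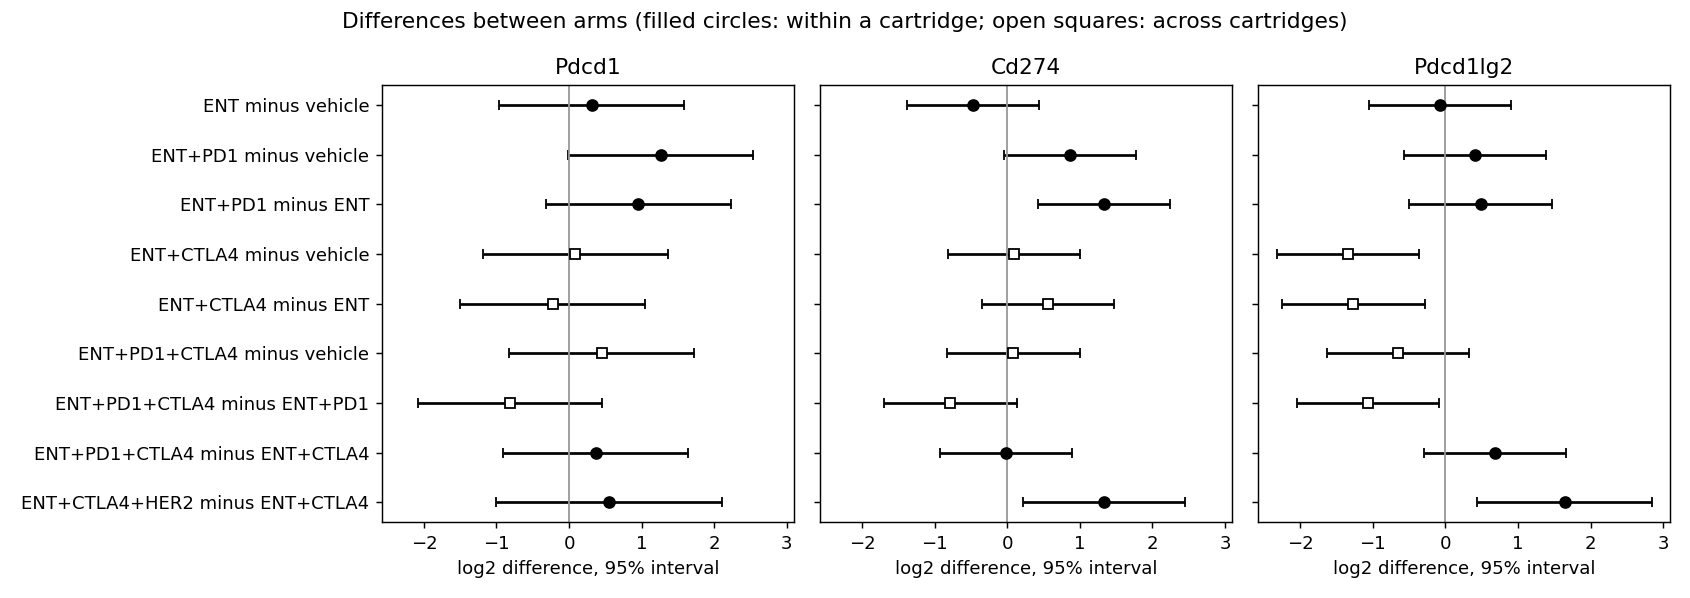
Log2 differences with 95% intervals from the limma fit in 9 comparisons (rows) for Pdcd1 (fitted without the filter), Cd274 and Pdcd1lg2. Intervals of Cd274 leave out 0 for ENT+PD1 against ENT and for ENT+CTLA4+HER2 against ENT+CTLA4, and those of Pdcd1lg2 for 4 comparisons, 3 of them across cartridges, before adjustment over genes.

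Other genes of the pathway were read from lists of receptor-side signalling genes, interferon gamma response genes, a type 2 and GM-CSF axis, NF-kB and hypoxia inputs and other checkpoint genes. Ptpn11 and Ptpn6, the phosphatases, were not on the table. Against ENT, 11 of 13 receptor-side genes were higher in ENT+PD1, with a median of 0.60, and 0 passed. Of the interferon gamma genes 17 of 18 were higher, with a median of 0.41, and 0 passed. Over all 621 genes 81.3% were higher, with a median of 0.34, so a share near this is not particular to the lists. Type 2 and GM-CSF genes were higher in 9 of 10 (median 0.57), NF-kB and hypoxia genes in 10 of 10 (0.34) and other checkpoint genes in 11 of 13 (0.57), with 0 passing in each. Without replicates 5 and 6 of ENT+PD1, the counts higher were 4 of 13, 11 of 18, 4 of 10, 6 of 10 and 10 of 13 in the order given, with 60.7% of all genes higher. Among the cell type lists Klrk1, the NKG2D receptor gene of NK and T cells, was the 1 gene that passed (1.58, limma adjusted p = 0.0400), and it did not pass without replicates 5 and 6 (1.08, limma adjusted p = 1.000). Elsewhere Xcr1 of the dendritic cell list was called lower in ENT+CTLA4 than in vehicle, across cartridges (-1.58, limma adjusted p = 0.0368). With cartridge as a block Xcr1 was -0.72 (limma adjusted p = 0.526), and -0.97 when replicates 5 and 6 of ENT+PD1 were also left out (limma adjusted p = 0.990). Itgb4 of the epithelial list was called lower in ENT+CTLA4+HER2 than in ENT+CTLA4.

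Cd80, whose protein binds CD28, CTLA-4 and PD-L1, had 42.5, 31.0, 173 and 211 in ENT+PD1 replicates 1, 2, 5 and 6, against 37.9 to 57.3 in ENT (limma adjusted p = 0.301). Cd86, the other CD28 ligand, had 100.0, 93.1, 272 and 247, against 94.6 to 119 in ENT (adjusted p = 0.287). Ctla4 had 40.2, 11.4, 151 and 187 in the same tumours, against 6.19 to 40.3 in ENT (adjusted p = 0.254). The same tumours, 5 and 6, were high for all of these. Between ENT+PD1+CTLA4 and ENT+PD1, the checkpoint genes Tigit and Cd160, both inhibitory receptors of T and NK cells, were lower at -1.36 (limma adjusted p = 0.0488) and -1.46 (limma adjusted p = 0.0108). Against vehicle, Cd160 was lower in ENT+CTLA4 (-1.70, limma adjusted p = 0.0117) and in the combination (-1.36, limma adjusted p = 0.0355), all across cartridges. These 4 calls were lost with cartridge as a block, where Tigit was 0.052 (limma adjusted p = 0.977) and Cd160 -0.15, -0.38 and -0.046 (limma adjusted p = 0.894, 0.680 and 0.962). With the block, the differences from ENT+PD1, 0.052 and -0.15, are differences from the repeat-titled pair alone. They were the same without ENT+PD1 replicates 5 and 6. With no block, leaving out those replicates gave differences from ENT+PD1 of -1.06 for Tigit and -1.13 for Cd160 (limma adjusted p = 0.300 and 0.170). The Cd160 calls against vehicle still passed without these replicates when no block was used (limma adjusted p = 0.00704 and 0.0313). With the block as well, the Cd160 differences from vehicle were -0.72 in ENT+CTLA4 and -0.38 in the combination (limma adjusted p = 0.990 and 0.969). Within cartridge 2 Cd160 was higher in ENT+CTLA4+HER2 than in ENT+CTLA4 (1.72, limma adjusted p = 0.0249).

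Across all 24 samples the 3 transcripts were correlated with each other, in large part through 2 tumours. Of 15 relations computed on log2(value + 1), Pearson's r of Pdcd1lg2 with Pdcd1 was 0.72 (permutation p = 9e-05, adjusted 0.000225) and Spearman's rho was 0.53 (permutation p = 0.00884, adjusted 0.0133). For Cd274 with Pdcd1, r was 0.65 (permutation p = 0.00069, adjusted 0.00104) and rho 0.48 (permutation p = 0.0189, adjusted 0.0237). Leaving out the repeat-titled pair gave r of 0.64 (permutation p = 0.00165, adjusted 0.00248) and rho of 0.42 for this relation. That rho did not pass (permutation p = 0.0525, adjusted 0.0656). For Cd274 with Pdcd1lg2, r was 0.47 (permutation p = 0.0213, adjusted 0.0228) and rho 0.30 (permutation p = 0.152, adjusted 0.162). Without the 2 samples farthest out, ENT+PD1 replicates 5 and 6, r was 0.45, 0.33 and 0.13 in that order, with permutation p of 0.0363, 0.136 and 0.572. Over all 24 samples, r of the latter 2 relations thus leaned on those samples. Within cartridge 1 the 3 values of r were 0.89, 0.74 and 0.62. Within cartridge 2, which holds neither of those samples, they were 0.69, 0.52 and 0.68. Without ENT+PD1 replicates 5 and 6, those of cartridge 1 were 0.59, -0.094 and -0.25. The permutation tests set r against 0. For single genes, the median r over all genes was 0.35 with Pdcd1, 0.38 with Cd274 and 0.35 with Pdcd1lg2. It was 0.52, 0.58 and 0.47 within cartridge 1, and 0.25, 0.36 and 0.31 within cartridge 2. Over both cartridges without ENT+PD1 replicates 5 and 6 it was 0.13, 0.25 and 0.16. An r near these medians is not particular to the pair, and no such median was computed for list means.

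**Figure D4:**
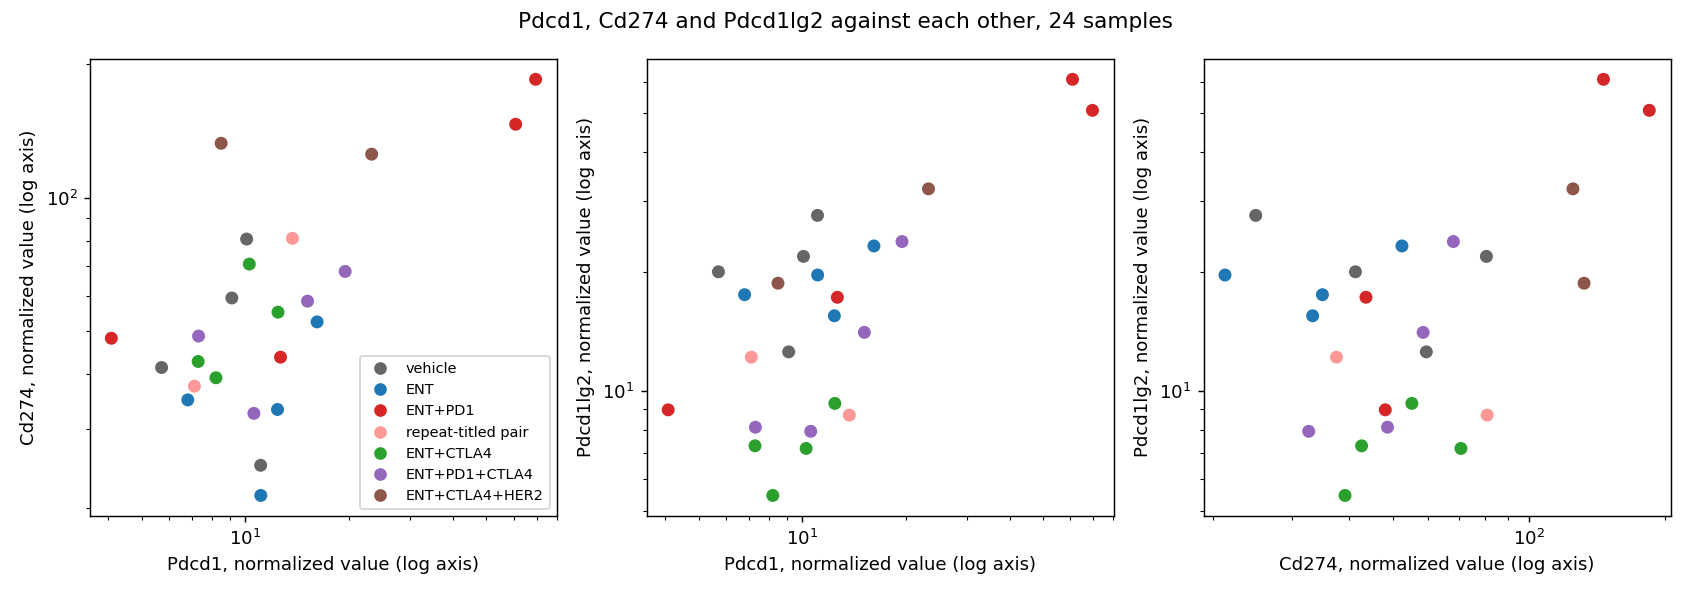
Normalized values of Cd274 and Pdcd1lg2 against Pdcd1, and of Pdcd1lg2 against Cd274, in 24 samples (log axes), coloured by group. ENT+PD1 replicates 5 and 6 lie at the upper right of each panel, apart from the other 22 samples.

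The correlation of the 3 transcripts with the T cell list moved with the samples left out. Over 24 samples r of Pdcd1 with the mean log2 level of the 9 genes of the list that passed the filter was 0.71 (permutation p = 0.00047, adjusted 0.0008) and rho 0.76 (permutation p = 9e-05, adjusted 0.000675). Without ENT+CTLA4 replicate 6 and ENT+PD1+CTLA4 replicate 1, r was 0.89. The same 2 samples lowered r for Cd274, from 0.79 to 0.59, and for Pdcd1lg2, from 0.84 to 0.59 (rho 0.68 and 0.66 over all 24 samples, permutation p at most 0.00258 for r and 0.00064 for rho, adjusted p at most 0.00298 and 0.00137). Within cartridge 1, r was 0.96 for Pdcd1, 0.85 for Cd274 and 0.89 for Pdcd1lg2. Within cartridge 2 it was 0.73, 0.45 and 0.65. Without ENT+PD1 replicates 5 and 6, r was 0.65, 0.44 and 0.43 over the other 22 samples, and 0.72, 0.34 and 0.62 within cartridge 1. In ENT+CTLA4 replicate 6 and ENT+PD1+CTLA4 replicate 1, Pdcd1 was 12.4 and 19.5 while the T cell list summed to 844 and 1608.

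With the interferon gamma response list, r was 0.73 for Pdcd1, 0.81 for Cd274 and 0.73 for Pdcd1lg2 (rho 0.52, 0.71 and 0.68, permutation p at most 0.00014 for r and 0.0106 for rho, adjusted p at most 0.0003 and 0.0145). Without the 2 farthest samples, ENT+CTLA4+HER2 replicate 2 and ENT+PD1 replicate 6, r was 0.59, 0.71 and 0.63. Within cartridge 1 it was 0.88, 0.88 and 0.81, and within cartridge 2 it was 0.66, 0.84 and 0.83. Without ENT+PD1 replicates 5 and 6 it was 0.52, 0.70 and 0.58 over all cartridges, and 0.23, 0.50 and 0.19 within cartridge 1. With the dendritic cell list, of which 4 genes were tested (Itgax, Xcr1, Ccr7 and Irf4), r was 0.80, 0.73 and 0.73 (rho 0.63, 0.72 and 0.71, permutation p at most 0.00008 for r and 0.00126 for rho, adjusted p at most 0.000225 and 0.0021), and 0.54, 0.53 and 0.50 without ENT+PD1 replicates 5 and 6. Within cartridge 1 it was 0.88, 0.92 and 0.81, where it was 0.24, 0.72 and 0.16 without those replicates, and within cartridge 2 it was 0.72, 0.56 and 0.66. The sum of this list was highest in ENT+PD1+CTLA4 replicate 1 and ENT+CTLA4 replicate 6, at 774 and 445. Itgax was 36.8 and 45.1 there, against 92.5 and 101.7 in ENT+PD1 replicates 5 and 6. Which cells carried these 4 transcripts was not tested. With the macrophage and monocyte list, r was 0.65, 0.66 and 0.41 (rho 0.38, 0.64 and 0.19, permutation p at most 0.0473 for r and 0.382 for rho, adjusted p at most 0.0473 and 0.382). Without ENT+PD1 replicates 5 and 6 it was 0.23, 0.43 and -0.035, so the macrophage relation rests on them for Pdcd1 and Pdcd1lg2. Within cartridge 1 it was 0.83, 0.90 and 0.70, and -0.048, 0.62 and -0.30 without the same tumours. Within cartridge 2 it was 0.28, 0.30 and 0.20.

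**Figure D5:**
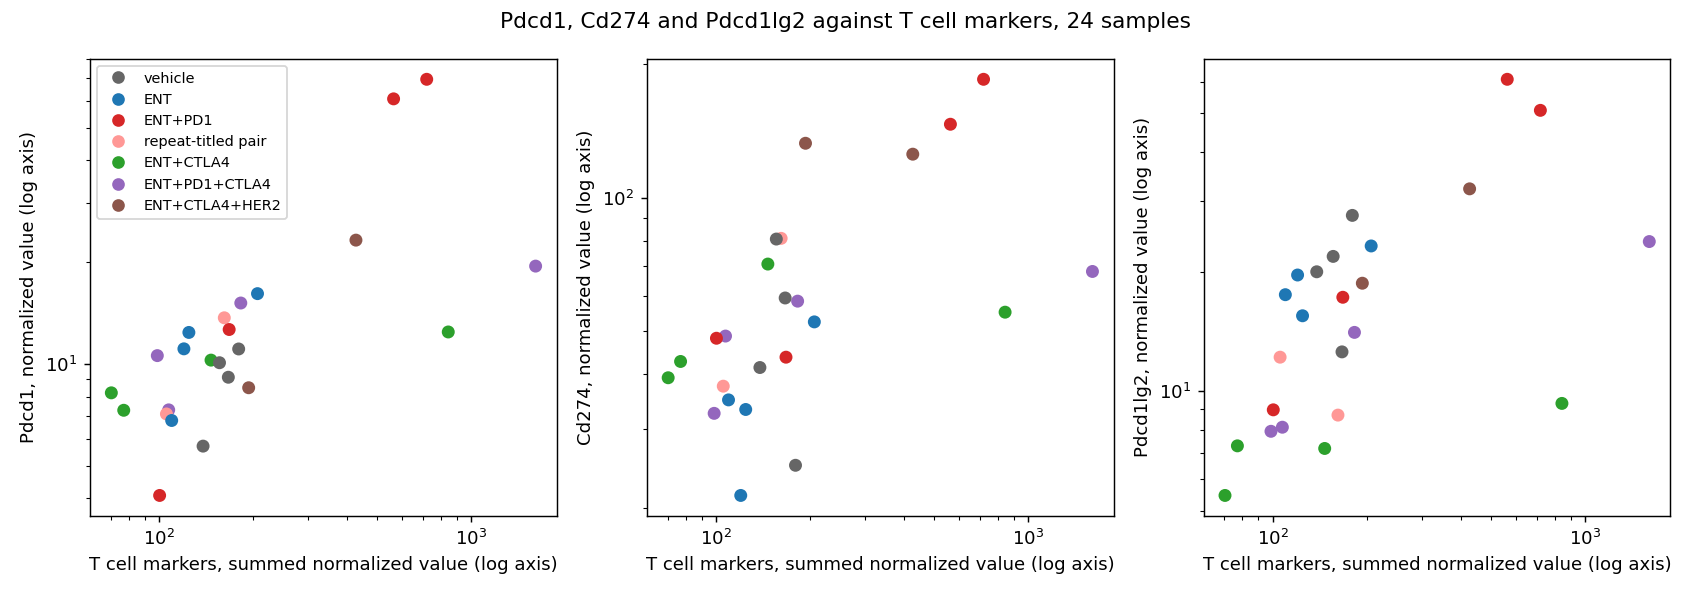
Normalized values of each gene against the summed normalized value of the T cell markers in 24 samples (log axes), coloured by group. ENT+CTLA4 replicate 6 and ENT+PD1+CTLA4 replicate 1 lie far to the right, at 844 and 1608, with all 3 genes below ENT+PD1 replicates 5 and 6.

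The genes most like each transcript were ranked by Pearson's r of log2(value + 1) over the same 24 samples, among genes that passed the filter. Nearest to Pdcd1 were Il2ra (0.87), H2-Aa (0.86), Il1rl1 (0.84), Il2rb (0.84) and H2-Ab1 (0.83), where the median over all genes was 0.35. Il2ra and Il2rb encode chains of the interleukin 2 receptor, and Il1rl1 the receptor of interleukin 33. Nearest to Cd274 were Cd74 (0.90), H2-Dma (0.89), H2-Ab1 (0.89), Gbp5 (0.87) and Syk (0.87), with a median over all genes of 0.38. Cd74, H2-Dma and H2-Ab1 encode parts of the MHC class II pathway, and Gbp5 is a GTPase induced by interferon gamma. Nearest to Pdcd1lg2 were Tigit (0.85), CD209e (0.84), Ccl17 (0.83), Psmb9 (0.83) and Klra5 (0.82), with a median of 0.35. Ccl17 is a chemokine of dendritic cells and Klra5 a receptor of the Ly49 family of NK cells. Without ENT+PD1 replicates 5 and 6 the 5 values for Cd274 were 0.83, 0.82, 0.82, 0.87 and 0.78, and those for Pdcd1 fell to between 0.58 and 0.75.

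At the other end, the lowest r with Pdcd1 were those of Epcam (-0.78), Tnfrsf12a (-0.75) and the E-cadherin gene Cdh1 (-0.74). For Cd274, low values included Ppia (-0.72) and Tnfrsf12a (-0.71), and for Pdcd1lg2 the lowest were Itch (-0.76), Cdh1 (-0.65) and Igf2r (-0.63). Without ENT+PD1 replicates 5 and 6, r of Pdcd1 was -0.45 with Epcam, -0.52 with Tnfrsf12a and -0.49 with Cdh1. All samples share the same housekeeping scaling, and these values are descriptions across samples.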

How the data were processed

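RNA of 24 tumour samples was read on an nCounter instrument. The series title names a PanCancer Immune panel and the label protocol a myeloid panel, and the genes were used as the table lists them. The deposited values are a linear signal already scaled to housekeeping genes, whose geometric mean was 346.9 in each sample. The submitters' processing notes name limma alone, and how the authors normalized is not given in the sources used here. Dividing each sample by 1 factor returned whole counts for 100% of the deposited values above 1 (tolerance 0.05), with 82 values at exactly 1, none of them in the 3 genes.

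From these, log2(value + 1) was fitted with limma 3.58.1 (lmFit, eBayes with trend) over 22 samples in 6 groups and 621 of 770 genes, with Benjamini-Hochberg adjustment over all genes tested. The repeat-titled samples did not enter the fit. Recovered counts entered edgeR 4.0.16 and DESeq2 1.42.0 as alternatives. With the 27 exact permutation tests of the genes, 27 ratio tests to Ptprc and 15 relations (100000 permutations, Python 3.11.15, scipy 1.17.1) were computed. Alternatives were median rescaling, quantile normalization, a pseudocount of 5, a floor of 20, no filter, background subtraction, a replicate block, the pair in ENT+PD1, a cartridge block, the compared groups alone, the count tools and each sample left out, and, chosen after seeing the data, ENT+PD1 replicates 5 and 6 left out together, also with the cartridge block. The limma code was tested on simulated counts. Same-numbered samples did not deviate together (median r -0.033 over 40 pairs), so numbers were not used as pairs.

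Named genes are the 3 genes, the 5 highest and 3 lowest by r with each, list genes that passed, and a fixed set of pathway and marker genes, of which those beside a result are printed; some items under this rule are not reported here. The genes and lists were chosen with earlier results of these data known.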

Additional observations from a re-analysis of the deposited data

How the results depend on the processing

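No difference of the 3 genes passed as planned, and of the alternative values 2 of 242 with a sample left out and 1 of 305 under other settings did. These were Cd274 in ENT+PD1 against ENT without replicate 1 of ENT+PD1 (0.98 to 1.66 over single samples left out), Pdcd1lg2 in ENT+PD1+CTLA4 against ENT+PD1 without replicate 2 of ENT+PD1 (-1.56 to -0.68), and Pdcd1lg2 in ENT+CTLA4 against ENT fitted alone (-1.27, adjusted p = 0.0234). The adjusted p of the F test of Pdcd1lg2, which spans both cartridges, ranged from 0.0159 to 0.255 over single samples left out.

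Signs turned in small differences. For Pdcd1lg2 in ENT against vehicle the value was 0.065 under median rescaling, 0.10 under quantile normalization, 0.35 with background subtracted, 0.0033 by edgeR and -0.28 to 0.082 over single samples left out. ENT+PD1 against vehicle gave -0.018 with the repeat-titled pair included, and ENT+PD1 against ENT gave -0.0051 under quantile normalization and -0.10 with background subtracted. The cartridge block gave 0.022 for ENT+CTLA4 against ENT, 0.64 for ENT+PD1+CTLA4 against vehicle and 0.22 against ENT+PD1. With ENT+PD1 replicates 5 and 6 left out as well, it gave 0.22 for the last of these, a difference from the repeat-titled pair alone. For Cd274 the block then gave -0.16 for anti-CTLA-4 and -0.18 for both antibodies against vehicle. The Pdcd1lg2 interaction was -0.62 with a floor of 20 and -0.29 to 0.59 over single samples left out. Cd274 in ENT+PD1+CTLA4 against ENT+CTLA4 was 0.018 under median rescaling and -0.16 to 0.19 with single samples left out, and ranged from -0.20 to 0.35 for ENT+CTLA4 and -0.21 to 0.34 for ENT+PD1+CTLA4 against vehicle. Pdcd1 with background subtracted was 0.17 for ENT+CTLA4 against ENT and -0.018 for ENT+CTLA4+HER2 against ENT+CTLA4. With single samples left out it ranged from -0.094 to 0.19 for ENT+CTLA4 against vehicle and from -0.13 to 1.23 for ENT+CTLA4+HER2. The causes were not tested.

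Leaving out ENT+PD1 replicates 5 and 6 turned 7 differences: against vehicle to -0.041 (Cd274), -0.62 (Pdcd1lg2) and -0.23 (Pdcd1), against ENT to -0.55 (Pdcd1lg2) and -0.54 (Pdcd1), and of ENT+PD1+CTLA4 against ENT+PD1 to 0.13 (Cd274) and 0.68 (Pdcd1). For Pdcd1 relative to Ptprc it gave -0.038 against vehicle and -0.37 against ENT. Over single samples left out, Pdcd1 relative to Ptprc ranged from -0.032 to 0.68 for ENT+PD1 against ENT, from -0.45 to 0.043 for ENT+PD1+CTLA4 against vehicle and from -0.49 to 0.90 for ENT+CTLA4+HER2 against ENT+CTLA4. Pdcd1lg2 relative to Ptprc ranged from -0.30 to 0.30 for ENT and from -0.59 to 0.013 for ENT+PD1 against vehicle.

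Of 60 values of Pearson's r recomputed, 13 no longer passed, none of them within cartridge 1, where 12 of 15 Spearman values did not pass and Pearson's r leaned on ENT+PD1 replicates 5 and 6. Under median rescaling r was 0.24 for Cd274 with Pdcd1lg2, 0.44 for Pdcd1 with macrophages, 0.38 and 0.35 for Cd274 with T cells and macrophages, and 0.42 and 0.042 for Pdcd1lg2 with the same lists. Within cartridge 2 it was 0.52 for Cd274 with Pdcd1, 0.28 for Pdcd1 with macrophages, 0.45, 0.30 and 0.56 for Cd274 with T cells, macrophages and dendritic cells, and 0.20 for Pdcd1lg2 with macrophages, which was 0.39 without the repeat-titled pair. The replicate block gave 1.10 for Cd274 in ENT+PD1 against ENT and changed no call. With cartridge as a block, 0 genes were called in the 4 comparisons across cartridges. Calls over all genes moved too: ENT+CTLA4 against vehicle had 9 by limma and 21 by DESeq2, ENT+PD1+CTLA4 against vehicle 13 by limma and 0 by edgeR or DESeq2, ENT+PD1+CTLA4 against ENT+PD1 20, 1 and 0 by limma, edgeR and DESeq2, ENT+CTLA4+HER2 against ENT+CTLA4 14, 16 and 23, and ENT+PD1 against ENT 2, 0 and 1. Where both groups of Pdcd1 lay at the floor of 20, no value was given. Low counts, from 4 for Pdcd1 and 6 for Pdcd1lg2, limit the precision of their differences.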
